A study of Mus musculus with 24 samples.

Results

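The subject here is the interaction of diabetes and stimulation in the open chromatin of mouse macrophages, that is, the stimulated minus unstimulated difference in diabetic cells minus the same difference in control cells. ATAC-seq, which marks open chromatin by the sites where Tn5 transposase inserts adapters, had been carried out on macrophages grown from bone marrow of male C57Bl/6 mice. All 24 libraries of the series entered, in 4 groups of 6 given by the sample titles. The 1274891 deposited peaks were merged into 102580 regions, of which 80598 were found in at least 2 libraries and are described below. The interaction in detection (the number of libraries with a peak) could be tested in 26247 of these regions, and the interaction in rank (the place of a region's fold enrichment within its own library) in the 22770 regions found in all 24 libraries.

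The control groups came from mice labelled non-diabetic, and the diabetic groups from mice in which streptozotocin (STZ), a toxin of insulin-producing beta cells, had induced diabetes. Unstimulated cells were the baseline of both phenotypes, and stimulated cells had received lipopolysaccharide (LPS, 100 ng/mL) together with interferon gamma (IFNγ, 10 ng/mL). How long the stimulation lasted is uncertain, since the one time given, 6 h of culture, is stated for samples with IL-1β, and no other label names that cytokine. The diabetic model is chemical, all mice were male, and the cells had been cultured outside the animal before they were stimulated. The series design describes samples divided between both states, but no label ties a replicate number to a mouse, so p-values measure the spread between these libraries.

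LPS binds Toll-like receptor 4 on macrophages and activates NF-κB and interferon regulatory factors, while IFNγ signals through JAK kinases. Given together they drive classical, inflammatory activation, in which enhancers and promoters of cytokine, antimicrobial and antigen presentation genes are opened while part of the resting enhancers lose accessibility. Myeloid cells of diabetic animals are known for altered inflammatory and lipid handling programmes, and a culture from bone marrow asks whether such a difference persists outside the diabetic host.

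Promoter sequence is shown first for 5 genes to which later results refer. The regions at Twsg1 and Cav2 were among the 10 regions with the smallest p-values for a smaller rank response in diabetic cells, those at Abca1 and Pgk1 led the lipid handling and glycolysis lists in rank, and Il6 is a classical LPS target whose region had a rank interaction close to 0. Each window runs from 250 bases before to 50 bases after the annotated start, is written 5′ to 3′ on the strand of the gene, and was taken from RefSeq (GRCm38.p6, the chromosomes of mm10). Capitals mark matches on either strand to 6 short motifs: NF-κB (GGG, any 2 bases, TTTCC), ISRE (TTTC, any 2 bases, TTTC), AP-1 (TGANTCA), PU.1 (GAGGAAG), the GC box (GGGCGG) and the CCAAT box (CCAAT). The windows lie at chr17:65951138-65951437 (Twsg1, minus strand), chr6:17280935-17281234 (Cav2, plus), chr4:53159846-53160145 (Abca1, minus), chrX:106186850-106187149 (Pgk1, plus) and chr5:30012864-30013163 (Il6, plus).
Twsg1: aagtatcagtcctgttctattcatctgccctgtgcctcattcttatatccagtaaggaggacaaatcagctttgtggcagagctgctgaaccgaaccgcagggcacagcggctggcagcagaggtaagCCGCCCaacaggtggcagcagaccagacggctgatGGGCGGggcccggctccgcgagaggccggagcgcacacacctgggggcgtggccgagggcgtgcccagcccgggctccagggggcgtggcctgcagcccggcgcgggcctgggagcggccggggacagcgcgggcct
Cav2: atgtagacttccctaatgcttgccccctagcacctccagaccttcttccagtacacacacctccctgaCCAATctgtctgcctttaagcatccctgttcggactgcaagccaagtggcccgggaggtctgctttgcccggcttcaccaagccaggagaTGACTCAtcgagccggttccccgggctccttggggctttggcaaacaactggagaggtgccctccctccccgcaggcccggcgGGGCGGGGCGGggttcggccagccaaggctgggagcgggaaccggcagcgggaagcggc
Abca1: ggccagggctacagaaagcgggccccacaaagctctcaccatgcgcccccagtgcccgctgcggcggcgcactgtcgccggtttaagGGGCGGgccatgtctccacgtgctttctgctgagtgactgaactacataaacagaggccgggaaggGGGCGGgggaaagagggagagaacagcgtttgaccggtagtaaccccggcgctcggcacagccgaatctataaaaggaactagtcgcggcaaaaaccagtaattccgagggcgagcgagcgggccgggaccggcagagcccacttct
Pgk1: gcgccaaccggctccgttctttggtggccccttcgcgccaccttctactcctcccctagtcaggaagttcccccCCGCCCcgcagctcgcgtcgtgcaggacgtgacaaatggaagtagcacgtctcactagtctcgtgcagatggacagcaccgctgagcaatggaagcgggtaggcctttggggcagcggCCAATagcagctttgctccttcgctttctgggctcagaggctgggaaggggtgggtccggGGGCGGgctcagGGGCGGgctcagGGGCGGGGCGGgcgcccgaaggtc
Il6: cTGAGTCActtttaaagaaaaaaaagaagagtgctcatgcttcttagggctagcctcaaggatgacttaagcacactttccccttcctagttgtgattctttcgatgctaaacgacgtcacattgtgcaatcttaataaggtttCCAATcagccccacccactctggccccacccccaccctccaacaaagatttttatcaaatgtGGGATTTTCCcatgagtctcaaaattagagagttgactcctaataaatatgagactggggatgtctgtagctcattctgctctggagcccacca

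The Il6 window held 1 NF-κB, 1 AP-1 and 1 CCAAT match, and only 3 CG dinucleotides. The windows of Twsg1, Cav2, Abca1 and Pgk1 held between 16 and 26 CG dinucleotides and 2 to 5 GC boxes each, and none of them held an NF-κB or ISRE match. Over all 32851 windows the median was 7 CG dinucleotides, and 35.7% held a GC box, 37.4% a CCAAT box, 13.6% a PU.1, 7.81% an AP-1, 3.44% an ISRE and 1.63% an NF-κB match. A match is a description of these letters and not evidence of binding, and a window without one says nothing about the factor.

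The lengths of the peak lists bear on every count of libraries and are given first. Peak numbers were 51425 to 60610 in unstimulated control, 41385 to 54960 in stimulated control, 49837 to 61861 in unstimulated diabetic and 46503 to 58016 in stimulated diabetic macrophages. The mean difference on stimulation was -8722 peaks in control and -1819 in diabetic cells. The interaction was therefore 6903 peaks, which did not pass (two-sided exact permutation test of the phenotype labels within each state, p = 0.0792, adjusted p = 0.132 over 5 library measures). Stimulated control and stimulated diabetic libraries overlapped, with control replicate 6 (54960 peaks) above 3 diabetic libraries and diabetic replicate 5 (46503 peaks) below 4 control libraries.

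Gene-end peaks, whose summit lay at most 1 kb from the start or the end of a gene, made up 22.6% ± 0.854 of peaks in unstimulated control, 26.2% ± 1.64 in stimulated control, 22.9% ± 1.36 in unstimulated diabetic and 23.8% ± 1.58 in stimulated diabetic libraries (SD, n = 6). The interaction of -2.7 percentage points had an exact permutation p of 0.035 and an adjusted p of 0.0876. The median fold over the 22770 regions, in which each fold is the authors' enrichment over the background of the same library, was 9.94 ± 0.504 and 7.88 ± 0.375 in control and 9.75 ± 0.394 and 8.82 ± 0.92 in diabetic libraries without and with stimulation (SD, n = 6). Its interaction was 1.14, with an exact permutation p of 0.0344 and an adjusted p of 0.0876. The means of both measures were closer together between states in diabetic than in control libraries, and neither interaction passed after adjustment. Both passed once diabetic stimulated replicate 5, the shortest list of its group, was left out, with interactions of -3.23 percentage points and 1.34 in fold (exact permutation, adjusted p = 0.0381 each). Over the fits with 1 library left out, this was the lowest adjusted p of each measure, and the highest was 0.165 (exact permutation). Covered length had an interaction of 2.1 Mb (exact permutation, adjusted p = 0.297) and median peak width one of -2.33 bp (adjusted p = 0.782).

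**Figure D1:**
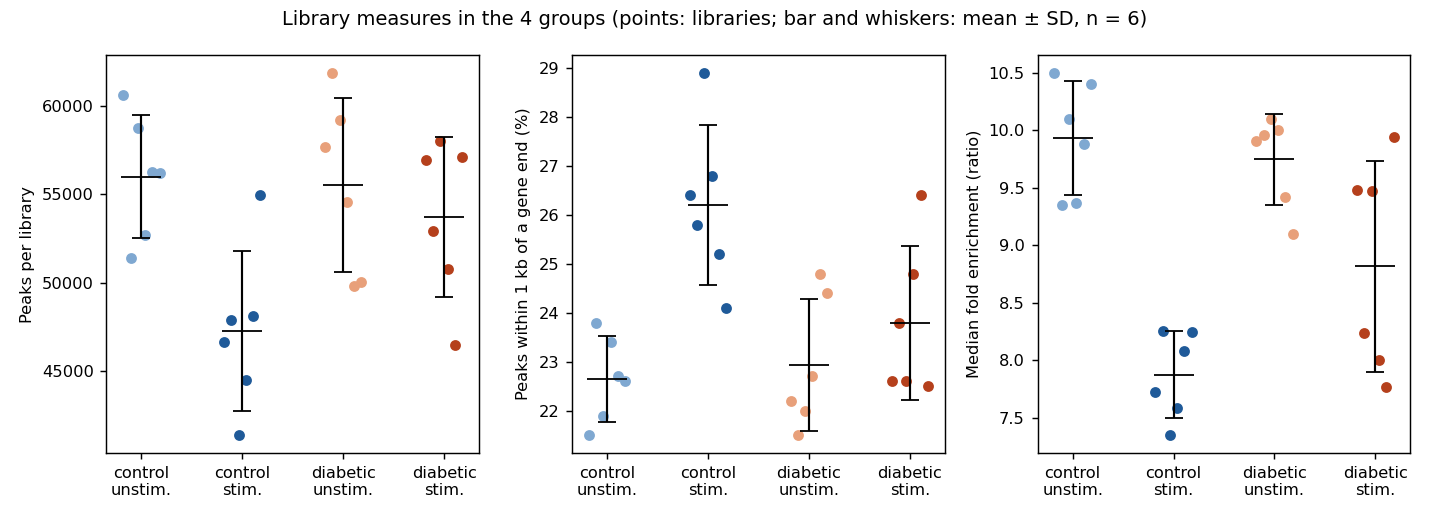
Peak number, percentage of peaks within 1 kb of a gene end and median fold enrichment (a ratio) on the vertical axes, with 1 point per library, and the bar and whiskers giving the mean ± SD of 6 libraries; the vertical axes do not start at 0. Stimulated control libraries sit apart from unstimulated control libraries in gene-end share (24.1 to 28.9% against 21.5 to 23.8%) and fold (7.35 to 8.26 against 9.35 to 10.5), while the diabetic groups overlap in all 3 measures.

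How many reads each library had is not given in the sources used here. A relative depth was available as the background level, in tags, that the fold and the −log10 p-value of a peak imply together. It ranged from 0.664 to 1.007 over the 24 libraries, and its interaction was -0.0435 tags (exact permutation p = 0.535).

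No region passed the detection test in either direction. The percentage called was 0 for larger and 0 for smaller responses of diabetic cells, the smallest adjusted p of the exact permutation test was 1, and Zelen's exact test, which compares odds ratios, also called 0 of 9353 regions. At an unadjusted p under 0.05, 764 regions (2.91%) had a larger and 110 regions (0.419%) a smaller stimulated minus unstimulated difference in diabetic cells. Leaving out 1 library gave 1014 to 1722 larger and 152 to 298 smaller regions at that level, the most without diabetic stimulated replicate 5 and diabetic unstimulated replicate 6, respectively. Both counts thus rose whichever library was left out, and the cause was not tested. Groups were then of unequal size, and which regions can be tested depends on group size, so these counts are not shares of 1 fixed set. Zelen's test gave 200 and 29 regions. The difference of differences had a mean of 0.909 libraries and a median of 1 over the tested regions, and ran from -7 to 10.

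A positive value was more frequent than a negative one, at 59.3% against 27.2% of tested regions. The lean was smaller with lists of equal length. With every list kept to its 41385 peaks of highest −log10 p-value, the mean was 0.143 libraries, 45.1% of regions lay above and 40.0% below 0, and the regions at an unadjusted p under 0.05 numbered 286 larger and 203 smaller. The larger share among them was 87.4% with all peaks and 58.5% with equal lists. No region passed with equal lists either.

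**Figure D2:**
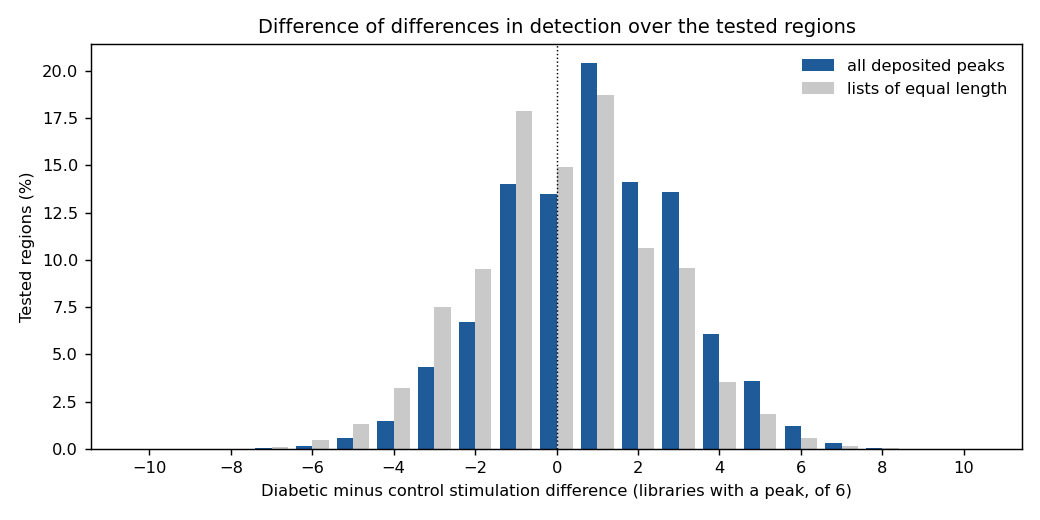
Percentage of tested regions (vertical axis) at each diabetic minus control stimulation difference, in libraries of 6 (horizontal axis), for all deposited peaks (blue, 26247 regions) and for lists cut to 41385 peaks (grey, 19872 regions). The blue bars lean to the right of 0, with a mean of 0.909, and the grey bars centre near 0, with a mean of 0.143.

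With 6 libraries per group, the detection test has little reach after adjustment. A region in 6 libraries of 1 group and in 0 of the other 3 groups reaches an unadjusted exact permutation p of 0.00216, and a full crossing (6 and 0 in control, 0 and 6 in diabetic cells) reaches 2.34e-06. Over 26247 tests a single full crossing would have an adjusted p of 0.0615, so at least 2 such regions would be needed for a call, or 1137 of the former kind. The smallest unadjusted exact permutation p seen was 1.15e-04. Only 458 of the 26247 tested regions had a difference of differences of 6 libraries or more in size, 405 of them positive and 53 negative.

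The 10 regions leading in the larger direction shared a pattern in control cells, where each was found in 4 to 6 unstimulated and in 0 to 2 stimulated libraries. None passed the exact permutation test (adjusted p = 1 for each), so the counts below are given as values. They were chosen by their p in this test, and the list is a description.

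The first of them, at chr2:181568227-181568634, lies 719 bp outside Uckl1, a uridine-cytidine kinase-like gene, and within 1 kb of its end. It was found in 5 unstimulated and 0 stimulated control libraries, and in 0 unstimulated and 5 stimulated diabetic libraries. The opposite direction of its counts in the phenotypes gives the difference of 10 libraries, the highest of all regions, and 5 with equal lists. A region in the gene body of Ripor2 (chr13:24641524-24641987), a regulator of cell polarity, had the same form, with 4 and 0 control and 0 and 5 diabetic libraries. Its difference of 9 libraries became 3 with equal lists.

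In the body of Spata1 (chr3:146473792-146474068) a region was found in 6 and 0 control and in 1 and 4 diabetic libraries without and with stimulation, a difference of 9. The region nearest H2-M10.4, a non-classical MHC class I gene, lies 41853 bp from it (chr17:36504021-36504344) and had 5 and 0 control and 1 and 5 diabetic libraries. A region with no protein-coding gene within 50 kb (chr17:83277444-83277964) had 6 and 2 control and 1 and 6 diabetic libraries, a difference of 9 that became -1 with equal lists. With equal lists it was found in 0 and 2 control and in 0 and 1 diabetic libraries, so the reversed value rests on few peaks.

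At the other 5 regions the diabetic counts differed by only 1 or 2 libraries between states. Inside Pag1 (chr3:9828634-9828986), which encodes a membrane adaptor that recruits the kinase Csk, a region was found in 6 and 0 control and in 5 and 6 diabetic libraries. This difference of 7 libraries was 8 with equal lists, the only one of the 10 that did not shrink. The same counts were seen at regions without a gene within 50 kb at chr13:37704495-37705087 and chr1:91692623-91693128, where equal lists gave 3 and 4. Regions in Ipo11, an importin gene (chr13:106847521-106847901, 6 and 0 against 1 and 3), and Ywhab, which encodes a 14-3-3 protein (chr2:164008998-164009417, 6 and 0 against 3 and 5), each had a difference of 8.

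In the smaller direction the leading regions were mostly found in unstimulated diabetic libraries, and 8 of the 10 had a peak in 0 stimulated diabetic libraries. None passed (adjusted p = 1 for each). Nr6a1, an orphan nuclear receptor gene, holds a region in its body (chr2:38866620-38867090) that was found in 5 and 5 control libraries and in 6 and 0 diabetic libraries. Its difference of -6 was -5 with equal lists. A region 11940 bp from Gsn, which encodes the actin-severing protein gelsolin (chr2:35244241-35244598), had 1 and 1 control and 6 and 0 diabetic libraries.

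Hapln1, a gene for a link protein of the extracellular matrix, lies 1135 bp from a region (chr13:89539172-89539617) with 1 and 2 control and 6 and 0 diabetic libraries, a difference of -7 that became -1 with equal lists. The region inside Sft2d2 (chr1:165188881-165189150) had 0 and 1 against 5 and 0, and also came to -1 with equal lists. In these 4 regions the control counts differed between states by at most 1 library.

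Counts moved in opposite directions at the remaining 6. Cdc42se2, a gene for a small effector of the GTPase CDC42, holds a region (chr11:54748847-54749171) found in 0 and 5 control and in 2 and 0 diabetic libraries. The region 7157 bp from Glrx5, whose product serves mitochondrial iron-sulfur cluster assembly (chr12:105025288-105025635), had 1 and 6 against 6 and 4. At the end of F2rl1, the gene of protease-activated receptor 2 (chr13:95524618-95525183), the counts were 3 and 6 against 5 and 1. Regions at Pkhd1l1 (chr15:44457387-44457694, 0 and 4 against 3 and 0) and 24186 bp from Tsc22d2 (chr3:58490840-58491106, 1 and 4 against 4 and 0) also had a difference of -7 each.

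**Figure D3:**
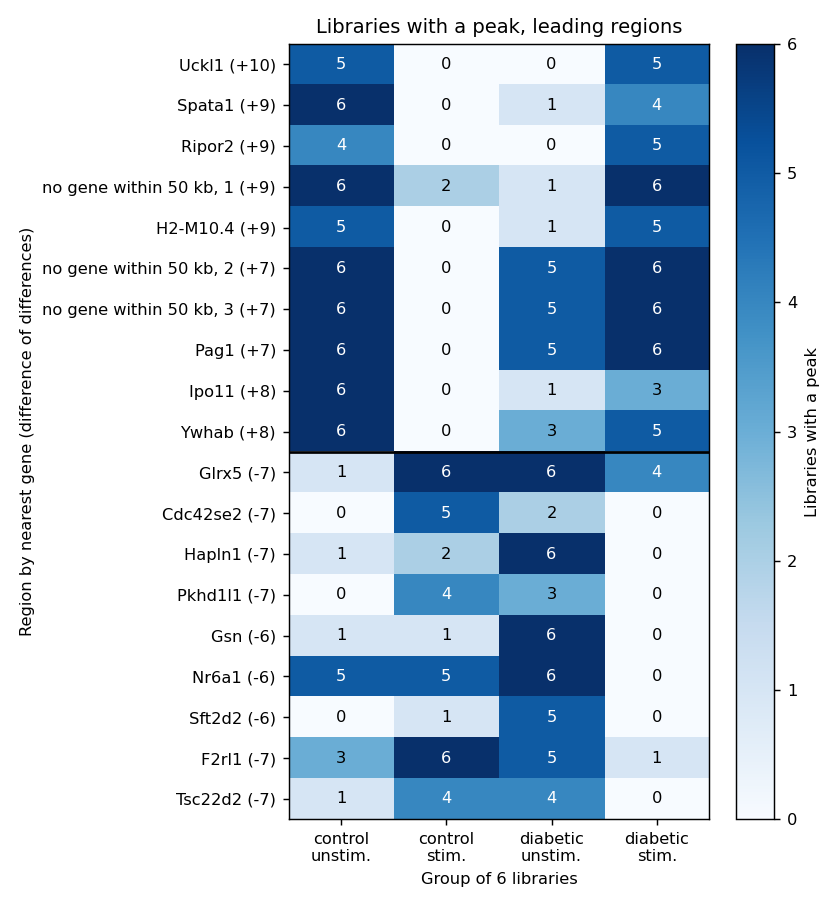
Number of libraries with a peak, of 6, in each group (columns) for 10 regions leading in the larger (above the line) and 9 leading in the smaller (below the line) direction, named by the nearest gene with the difference of differences in brackets. The upper rows hold 4 to 6 unstimulated control libraries, 0 to 2 stimulated control libraries and 3 (Ipo11) to 6 stimulated diabetic libraries. The lower rows are pale for stimulated diabetic cells, with 4 libraries at Glrx5 and 1 at F2rl1 as the exceptions.

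Regions were also divided by their response to stimulation over both phenotypes pooled. The 2868 gained regions, found in more stimulated libraries (Fisher's exact test over 12 against 12 libraries, Benjamini-Hochberg adjusted p under 0.05), were present in a mean of 0.606 control and 0.478 diabetic libraries before stimulation and of 4.53 and 5 after it. The mean interaction of 0.603 libraries became -0.0394 with equal lists. The 5901 lost regions, found in fewer stimulated libraries, went from 5.1 to 0.709 in control and from 5 to 1.4 in diabetic cells, an interaction of 0.784 that became 0.22. The other 71829 regions had 0.445 and 0.0407. At an unadjusted p under 0.05, larger and smaller responses were seen in 24 and 2 of 1095 tested gained regions, in 105 and 9 of 2702 tested lost regions and in 635 and 99 of 22450 others.

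In the rank test each library ranks the same 22770 regions from 0 (lowest fold) to 100 (highest), though the lengths of the lists decide which regions are found in all 24. It called 0 regions in either direction (limma, smallest adjusted p = 0.5), so the percentage called was 0 for both. At an unadjusted p under 0.05, 724 regions (3.18%) had a larger and 824 (3.62%) a smaller stimulated minus unstimulated difference in diabetic cells. With the mean rank over the regions of each of 11418 genes as the unit, a setting added after the data were seen, limma again called 0 genes (smallest adjusted p = 0.367), with 298 larger and 454 smaller at an unadjusted p under 0.05. The standard error of the interaction had a median of 10.0 percentile points over regions, and 388 regions had an estimate beyond 30 points in size. An interaction of a few percentile points was therefore not detectable at a single region.

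The rank interaction differed in median between positions in the genome. Of the 824 regions with a smaller response at an unadjusted p under 0.05, 53.5% lay at gene ends, against 37.3% of all ranked regions and 15.7% of the 724 with a larger response. The median rank interaction was -2.71 points over the 8486 regions at gene ends, 1.09 over 7801 regions inside gene bodies, 1.27 over 4426 regions outside genes but within 50 kb and 1.5 over 2057 regions farther away. Taken as 1 mean per library, regions at gene ends had ranks of 51.7 to 54.5 in unstimulated control, 55.5 to 60.5 in stimulated control, 52.8 to 55.6 in unstimulated diabetic and 51.9 to 63.5 in stimulated diabetic libraries. Stimulated diabetic libraries spread over the ranges of the other 3 groups. The interaction of these means was -3.04 points and did not pass (exact permutation p = 0.148), and inside gene bodies it was 1.89 points (exact permutation p = 0.112).

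Promoter windows of RefSeq overlapped 34.6% of ranked regions, 51.3% of those with a smaller and 14.5% of those with a larger response at an unadjusted p under 0.05. An AP-1 match was present in 12% of the 133 windows on larger-response regions and in 4.0% of the 575 windows on smaller-response regions, against 4.46% of the 10508 windows on ranked regions. For the ISRE these shares were 6.02%, 4.35% and 2.78%, for the CCAAT box 39.8%, 27.7% and 39.1%, and for the GC box 61.7%, 68.7% and 68.8%. NF-κB matches were in 1.5%, 1.74% and 1.66%, and PU.1 matches in 15%, 13.9% and 13.5%. These shares are descriptions over windows, several of which can share a region.

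Of the 10 regions leading in the larger direction in rank, 9 had a lower mean rank after stimulation in control cells. None passed (limma, adjusted p of 0.5 to 0.516). In Zcchc24 (chr14:25759575-25760147, gene body) the ranks, as lowest, median and highest library, were 34.6, 42.1 and 52.9 in unstimulated control and 2.84, 9.33 and 16.8 in stimulated control cells. Unstimulated diabetic libraries had 4.0, 10.4 and 30.9, and stimulated diabetic libraries 4.25, 13.6 and 23.6. Unstimulated control libraries thus stood above all others, and the difference of differences was 33.4 ± 6.7 points (SE).

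A region 27627 bp from Ankrd60 (chr2:173605648-173606152) had stimulated groups that did not overlap, with lowest, median and highest ranks of 10.7, 26.6 and 48.0 in control and 61.2, 70.3 and 83.9 in diabetic cells. From unstimulated ranks of 59.0 to 88.0 in control and 62.9 to 88.7 in diabetic cells, this gave 41.3 ± 10.1 points (SE).

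The region 20098 bp from Klk13, a kallikrein protease gene (chr7:43747641-43748283), had a median rank of 94.5 before and 42.7 after stimulation in control cells. In diabetic cells the medians were 89.5 and 82.3. The stimulated groups overlapped, at 31.2 to 64.3 against 54.3 to 95.4, and the interaction was 36.1 ± 8.01 points (SE). A region in Kitl, the gene of the ligand of the receptor Kit (chr10:100024666-100025061), had medians of 73.4 and 35.2 in control and 54.1 and 67.4 in diabetic cells, with an interaction of 45.2 ± 11.5 points (SE). In Tent4b, which encodes a non-canonical poly(A) polymerase (chr8:88228827-88229252), the medians were 53.6 and 23.3 in control and 37.4 and 66.2 in diabetic cells, with 49.3 ± 12 points (SE).

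The region in Cadm1, an immunoglobulin adhesion molecule (chr9:47651363-47651958), had medians of 58.2 and 11.2 in control and 37.5 and 44.4 in diabetic cells (46.2 ± 11.3 points, SE). In Tns3, a tensin of focal adhesions (chr11:8634506-8635142), they were 73.5 and 63.9 against 46.6 and 72.2 (38.8 ± 9.9 points, SE). In Pkd1l2, a polycystin family gene (chr8:117079659-117080103), they were 77.3 and 22.6 against 68.9 and 48.9 (34.2 ± 8.46 points, SE). The exception to the control pattern lay 2806 bp from Cp, the gene of the copper ferroxidase ceruloplasmin (chr3:19953876-19954379). This region overlapped the promoter window of Gm42190. Its median rank was higher after stimulation in both phenotypes, at 20 and 32.2 in control and 9.15 and 60.7 in diabetic cells, with an interaction of 33.0 ± 8.44 points (SE).

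Of the 10 regions leading in the smaller direction, 5 overlapped the promoter window of their own gene, and all 10 had a higher mean rank after stimulation in control and a lower one in diabetic cells. None passed (limma, adjusted p of 0.5 to 0.516). Twsg1 encodes a secreted protein that binds bone morphogenetic proteins, and its region (chr17:65950523-65951519) contains the promoter window printed above. The lowest, median and highest ranks were 44.2, 57.4 and 62.1 in unstimulated and 63.4, 67.6 and 77.8 in stimulated control cells, and 50.8, 60.9 and 78.7 in unstimulated and 37.0, 45.6 and 55.8 in stimulated diabetic cells. The stimulated groups did not overlap, and the interaction was -29.8 ± 6.42 points (SE).

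Cav2 encodes a caveolin of membrane invaginations, and its region (chr6:17280884-17281929) also contains the window printed above. Its ranks were 14.6, 18.9 and 47.7 in unstimulated and 22.3, 54.3 and 59.4 in stimulated control cells, and 29.7, 42.2 and 51.9 in unstimulated and 12.1, 24.3 and 27.8 in stimulated diabetic cells. The stimulated groups overlapped because 2 control libraries lay within the diabetic range, and the interaction was -41.8 ± 9.36 points (SE). Mrps25, a mitochondrial ribosomal protein gene (promoter region chr6:92183475-92184327), had medians of 42.4 and 70.5 in control and 66.3 and 53.0 in diabetic cells (-35.3 ± 8.5 points, SE). Tbc1d9b, which encodes a Rab GTPase-activating protein (promoter region chr11:50130625-50131762), had 23.7 and 49.6 against 40.8 and 30.4 (-34.5 ± 8.46 points, SE). The fifth promoter region, at 0610009B22Rik (chr11:51688389-51689347), had 69.1 and 88.6 against 83.3 and 79.1 (-20.8 ± 4.72 points, SE).

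Away from promoters, a region in Trak1, whose product links mitochondria to kinesin motors (chr9:121352171-121352643), had the smallest p of this direction. Its lowest, median and highest ranks were 1.0, 7.14 and 26.9 in unstimulated and 30.1, 44.7 and 65.3 in stimulated control cells, and 2.93, 6.94 and 29.5 in unstimulated and 1.33, 10.4 and 16.9 in stimulated diabetic cells. All 6 stimulated control libraries lay above every other library, and the interaction was -38.1 ± 7.95 points (SE). In Prr5l, which encodes a protein that binds an mTOR complex (chr2:101762392-101763452), the ranks were 41.0, 48.3 and 58.8 and then 46.8, 49.2 and 72.3 in control cells, and 54.6, 60.1 and 70.6 and then 28.4, 35.5 and 45.3 in diabetic cells. All 6 stimulated diabetic libraries lay below every stimulated control library (-29.2 ± 6.47 points, SE).

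The remaining 3 were a region 5290 bp from Tvp23a, a Golgi membrane protein gene (chr16:10452349-10453011), and a pair without a gene within 50 kb. At Tvp23a the median rank was 27.2 and 46.0 in control and 61.3 and 27.1 in diabetic cells (-45.2 ± 10.2 points, SE). The region at chr18:55939355-55939730 had medians of 27.1 and 82.2 against 50.7 and 46.3, and its estimate of -55.1 ± 12.4 points (SE) was the lowest of all ranked regions. The region at chr10:96294603-96295111 had 33.3 and 52.5 against 61.1 and 43.9 (-39.0 ± 9.19 points, SE).

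**Figure D4:**
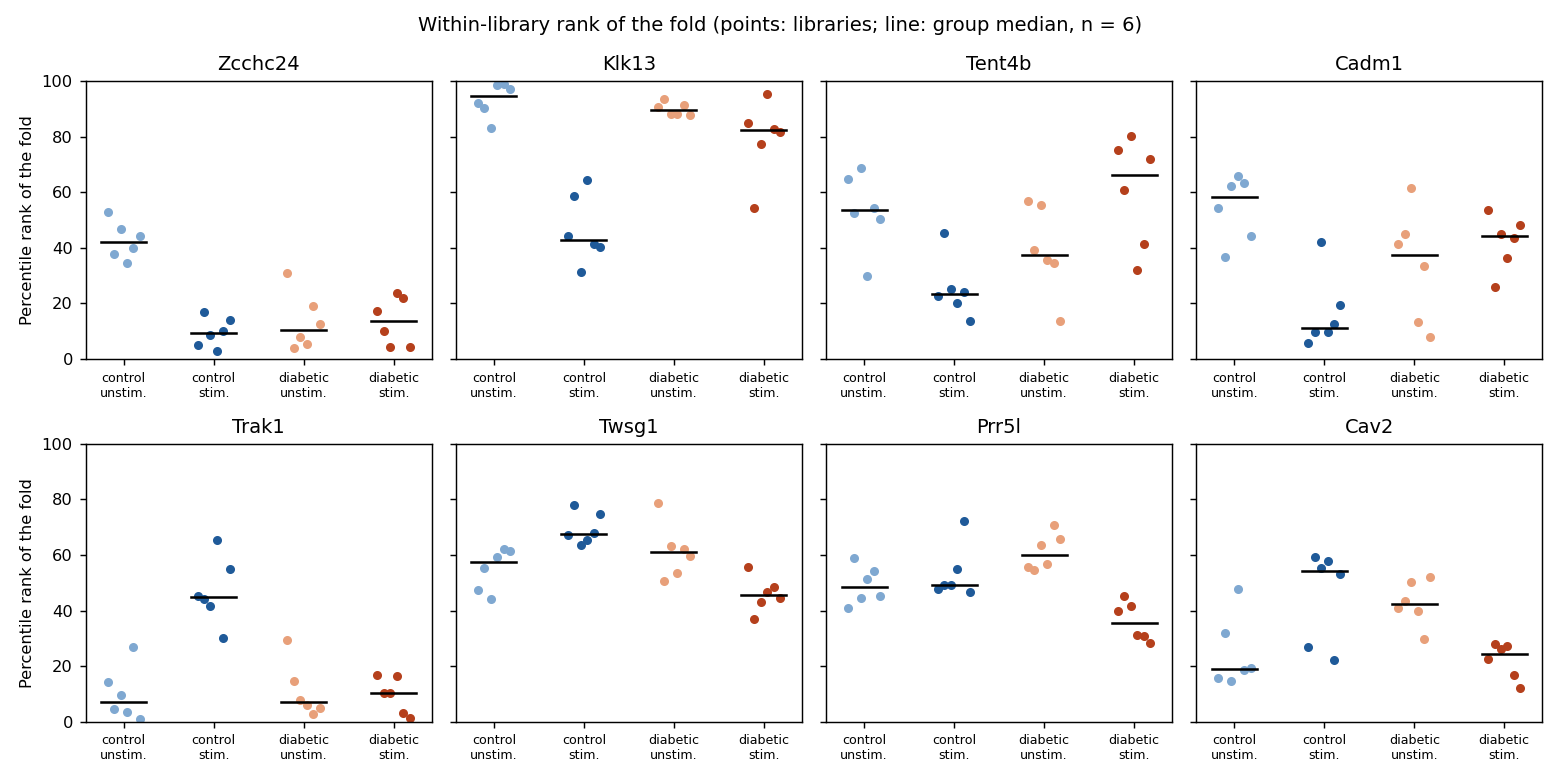
Percentile rank of the fold within each library (vertical axis, 0 to 100) in the 4 groups for 4 leading gene-assigned regions in the larger direction (top) and 4 in the smaller direction (bottom), with 1 point per library and a line at the median of 6. Stimulated control libraries are higher than stimulated diabetic libraries at Trak1, Twsg1 and Prr5l without overlap, whereas the stimulated groups overlap at Zcchc24, Klk13, Tent4b, Cadm1 and Cav2.

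Pathway lists were read as counts against all regions, of which 2.91% and 0.419% reached an unadjusted p under 0.05 in detection and 3.18% and 3.62% in rank, and in which the median interaction was 1 library and -0.375 percentile points. No list held a region that passed after adjustment in either test. The lists and their members were chosen with earlier results of these data known, so they are described by counts only.

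Among inflammatory cytokine genes, 0 larger and 1 smaller of 37 tested regions reached an unadjusted p under 0.05 in detection, and 1 and 2 of 40 ranked regions did so in rank (median -0.816 points). The smaller detection response was that of a region 37474 bp from Il1b, the gene of interleukin 1 beta (chr2:129408467-129408810), found in 0 and 4 control and in 4 and 2 diabetic libraries without and with stimulation. Its unadjusted exact permutation p was 0.0376 and its adjusted p was 1. In rank the leading region lay 13546 bp from Il12a, which encodes the p35 subunit of interleukin 12 (chr3:68676752-68677444). Its medians were 45.9 and 66.4 in control and 55.6 and 36.9 in diabetic cells, with an interaction of -41.2 ± 11.7 points (SE; limma, adjusted p = 0.516).

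Interferon response genes had 1 larger and 0 smaller of 31 tested regions in detection and 2 larger and 0 smaller of 32 in rank (median -0.884 points). The detection region lay 14450 bp from the interferon-induced gene Ifi44 (chr3:151716291-151716654), in 6 and 1 control and 3 and 4 diabetic libraries (adjusted exact permutation p = 1). In rank a region 3098 bp from Rsad2, the gene of the antiviral enzyme viperin (chr12:26439378-26439913), had medians of 51.2 and 5.45 in control and 16.4 and 20.4 in diabetic cells. Its interaction was 41.0 ± 11.1 points (SE; limma, adjusted p = 0.516).

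Classical activation genes had the most regions at an unadjusted p under 0.05 in detection, 5 larger and 1 smaller of 57 tested, with a median difference of 1 library as over all regions. In rank there were 4 larger and 1 smaller of 44 (median 1.83 points). Both leading regions lay in Cd86, which encodes a costimulatory ligand for T cells. One (chr16:36609427-36609702) was found in 0 control libraries of either state and in 0 unstimulated and 5 stimulated diabetic libraries, which became 2 with equal lists (adjusted exact permutation p = 1). In the other (chr16:36626765-36627290) the median rank was 98.0 and 63.6 in control and 97.3 and 83.3 in diabetic cells, with overlapping stimulated groups and an interaction of 16.7 ± 6.51 points (SE; limma, adjusted p = 0.665).

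Alternative activation genes had 2 larger and 0 smaller of 44 tested regions in detection and 1 and 0 of 40 in rank (median -0.93 points). The region 14721 bp from Pparg, which encodes a nuclear receptor for lipids (chr6:115504911-115505339), was found in 6 and 1 control and in 6 and 6 diabetic libraries, and in 6 and 1 against 6 and 5 with equal lists. Its difference of 5 libraries had an adjusted exact permutation p of 1. In rank a region at an end of Tgm2, a transglutaminase gene (chr2:158145268-158145860), had medians of 27.3 and 26.4 in control and 15 and 28.8 in diabetic cells (19.9 ± 9.09 points, SE; limma, adjusted p = 0.696).

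Antigen presentation genes had no region at an unadjusted p under 0.05 among 22 tested in detection and 14 ranked (median -1.57 points). The leading ones were in Ciita, the master regulator of MHC class II (chr16:10489079-10489934), with 2 and 6 control and 5 and 6 diabetic libraries, and 8458 bp from H2-Aa, an MHC class II chain gene (chr17:34295975-34296587), with -21.1 ± 14 points (SE; limma, adjusted p = 0.819).

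Negative feedback genes had 0 larger and 1 smaller of 69 tested regions in detection and 2 and 3 of 69 in rank (median 0.43 points). A region in Tnfaip3, the gene of the NF-κB inhibitor A20 (chr10:19002065-19002337), was found in 1 and 1 control and 5 and 0 diabetic libraries (adjusted exact permutation p = 1). A region 34785 bp from Nfkbiz, which encodes the nuclear IκB protein IκBζ (chr16:55776266-55776915), had a higher median rank after stimulation in both phenotypes, at 22.8 and 50.2 in control and 7.09 and 59.2 in diabetic cells. Its interaction was 32.6 ± 10.4 points (SE; limma, adjusted p = 0.593). The unstimulated diabetic ranks there spanned only 0.841 to 8.36, against 3.16 to 37.5 in control cells.

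Lipid handling genes had 1 larger and 0 smaller of 49 tested regions in detection and 2 and 2 of 65 in rank (median -1.41 points). The region 26804 bp from Plin2, which encodes a lipid droplet coat protein (chr4:86696882-86697160), was found in 6 and 0 control and in 1 and 2 diabetic libraries. Its difference of 7 libraries was 6 with equal lists (adjusted exact permutation p = 1). At Abca1, the cholesterol efflux transporter, the region (chr4:53159706-53160287) overlaps the printed promoter window. Its lowest, median and highest ranks were 42.9, 45.1 and 52.8 in unstimulated and 55.5, 78.7 and 93.8 in stimulated control cells, and 45.9, 54.6 and 62.6 in unstimulated and 63.5, 69.0 and 72.3 in stimulated diabetic cells. In each phenotype the states did not overlap, the stimulated groups did overlap, and the interaction was -18.8 ± 7.0 points (SE; limma, adjusted p = 0.665).

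Glycolysis genes had 1 larger and 0 smaller of 39 tested regions in detection, in the hexose transporter gene Slc2a6 (chr2:27025555-27025911, 1 and 0 control against 0 and 4 diabetic libraries), and 2 larger and 4 smaller of 59 in rank (median -0.0446 points). The region at the end of Pgk1, the gene of phosphoglycerate kinase (chrX:106186364-106187242), overlaps the printed window. Its ranks were 72.7, 83.1 and 95.2 and then 78.8, 86.6 and 91.3 in control cells, and 80.0, 85.7 and 92.9 and then 58.1, 73.9 and 83.1 in diabetic cells. The stimulated groups overlapped, and the interaction was -16.1 ± 5.9 points (SE; limma, adjusted p = 0.665).

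Genes of trained immunity and diabetes had no region at an unadjusted p under 0.05 among 77 tested in detection and 2 larger and 0 smaller of 62 in rank (median 1.61 points). Both leading regions lay in Runx2, a RUNX transcription factor gene. One (chr17:44700291-44700672) had 3 and 0 control and 1 and 3 diabetic libraries, a difference of 5 that became 0 with equal lists. The other (chr17:44654413-44654995) had median ranks of 74.0 and 62.6 in control and 63.9 and 74.8 in diabetic cells (24.4 ± 8.93 points, SE; limma, adjusted p = 0.665). Cell cycle genes had 1 larger and 0 smaller of 21 in detection, in the replication helicase gene Mcm5 (chr8:75119727-75120129, 6 and 1 against 5 and 6 libraries). In rank they had 1 and 1 of 23 (median -2.59 points), led by a region 42516 bp from Mki67 (chr7:135758677-135759256) with 25.3 ± 9.14 points (SE; limma, adjusted p = 0.665).

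Of 21 genes chosen as landmarks of this response, 18 had a region ranked in every library, and Nos2, Cxcl9 and Cxcl10 had none. The region with the smallest p at each gene was taken, and none passed. It was taken from 1 ranked region at Il6, Tnf and Mrc1, from 3 at Il1b and from up to 7, at Runx1. The sizes of the estimates are therefore not comparable between genes. At the classical LPS targets, the Il6 promoter region (chr5:30012748-30013486) had median ranks of 29.0 and 54.4 in control and 43.0 and 61.0 in diabetic cells, with an interaction of -1.74 ± 11.7 points (SE; limma, adjusted p = 0.991). The Tnf promoter region (chr17:35201559-35202732) was low in every group, with medians between 5.12 and 10.4, and had 2.79 ± 6.28 points (SE; limma, adjusted p = 0.963). A region 26181 bp from Il1b (chr2:129338034-129338743) had -3.71 ± 12.9 points (SE; limma, adjusted p = 0.981). These 3 estimates were smaller than their standard errors, and the errors at Il6 and Il1b leave room for differences of more than 20 points.

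The region 21923 bp from Il12b, the p40 subunit gene (chr11:44377933-44378348), had medians of 60 and 41.6 in control and 63.4 and 20.5 in diabetic cells (-21.0 ± 9.05 points, SE; limma, adjusted p = 0.683). Among receptors, the region in Tlr4, the LPS receptor (chr4:66842972-66843727), had 71.8 and 58.6 against 73.6 and 33.5 (-21.4 ± 12.1 points, SE; limma, adjusted p = 0.776). The region 24011 bp from Tlr2 (chr3:83811922-83812601) had 20.9 and 8.16 against 28.1 and 41.1 (24.5 ± 16.3 points, SE; limma, adjusted p = 0.819). The point estimates at the receptors thus had opposite signs, each within 2 standard errors of 0.

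The regions taken for transcription factors and inhibitors of the pathway all lay outside the gene they were assigned to. For the NF-κB subunit gene Nfkb1 the region was 39555 bp away (22.9 ± 15.1 points), and for the IκBα gene Nfkbia it was 15312 bp away (9.76 ± 11 points). For Socs3, an inhibitor of JAK signalling, it was 19258 bp away (19.8 ± 8.27 points). For Tnfaip3 it was 46995 bp away and overlapped the promoter window of Gm51814 (19.3 ± 9.48 points). The regions 10677 bp from Irf4 and 6462 bp from Irf1, both interferon regulatory factor genes, had 26.3 ± 15.1 and -11.9 ± 7.66 points. The region 21929 bp from Runx1 had 23.2 ± 11.3 points (SE throughout; limma, adjusted p between 0.683 and 0.909). The median rank of the Runx1 region (chr16:92847771-92848235) was higher after stimulation in both phenotypes, at 29.1 and 55.9 in control and 23.8 and 82.7 in diabetic cells. The estimates were -15 ± 13.1 in Cd36, a lipid scavenger receptor gene, -11.6 ± 6.76 for a region 4176 bp from Arg1, the arginase gene, and -11.5 ± 12.9 in Mrc1, the mannose receptor gene (percentile points, SE; limma, adjusted p between 0.787 and 0.909). These are 1 region per gene. Over all ranked regions of the alternative activation list, which holds Arg1, Mrc1 and Irf4, 18 estimates lay above and 22 below 0. Over those of the lipid handling list, which holds Cd36, 30 lay above and 35 below 0.

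**Figure D5:**
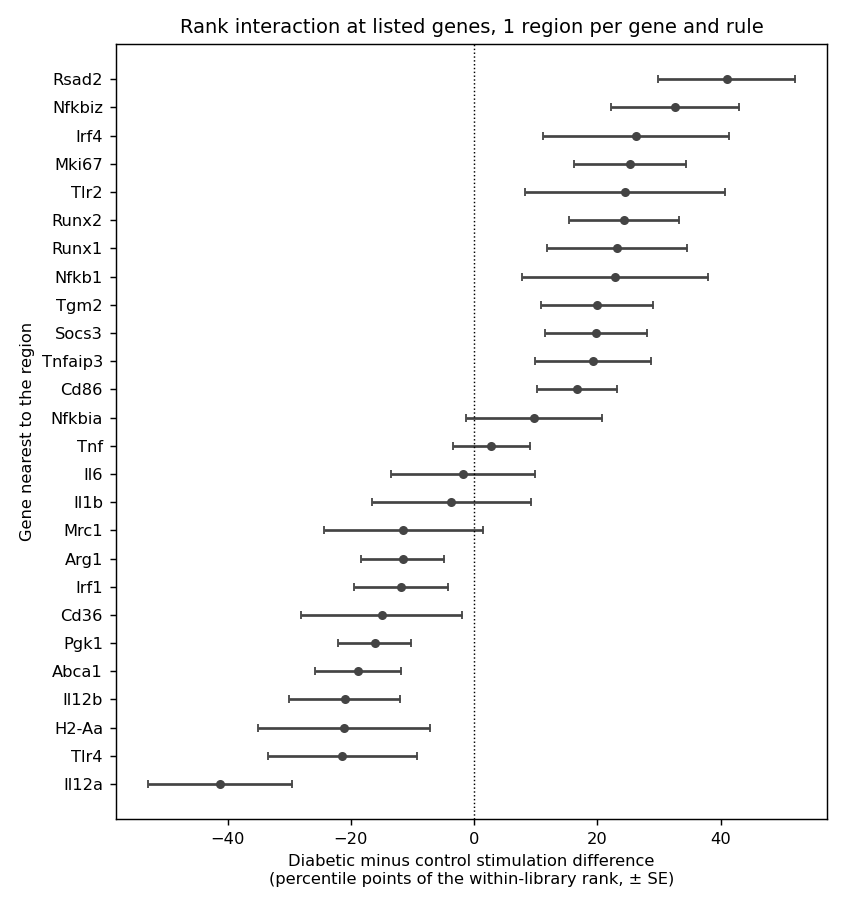
Rank interaction (horizontal axis, percentile points, with its standard error) of the leading region of each pathway list and of the landmark genes described, ordered by size. Estimates run from -41.2 at Il12a to 41.0 at Rsad2, with those of Il6, Tnf and Il1b closest to 0. Each is the region with the smallest p of its list or gene, so its size also depends on how many regions it was taken from. No region passed (limma, adjusted p of 0.516 or more).

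The labelled cell type was checked against markers. Of 157 regions assigned to 20 macrophage identity genes, between 83 and 125 were found in each library, and their interaction was 6.83 regions. Regions were also found at markers of other cells, with 17 to 30 of 38 at neutrophil, 13 to 27 of 38 at T and NK cell, 5 to 15 of 22 at B cell, 5 to 8 of 9 at erythroid and megakaryocytic, 28 to 48 of 74 at stromal and endothelial, 27 to 43 of 58 at dendritic cell and 4 to 13 of 20 at mast cell and basophil genes. Their interactions lay between 0.167 and 6.33 regions, in the direction of the list lengths, and their part in the results was not tested. Of all 80598 regions, group means of 43200 to 51700 were found per library, and the marker counts alone do not tell cell types apart. An open region nearest a marker gene does not show that the gene is expressed.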

How the data were processed

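The data are the authors' narrowPeak files, 1 for each library, so replicates were not pooled. Per the submitters' processing notes, the build was mm10, and the tools named are MACS2 2.1.1, Bowtie2 2.2.6, edgeR, DiffBind 2.4.8, FastQC 0.11.3 and Trim Galore 1.8. The sources used here do not give tool settings, read totals or any correction of read positions for the Tn5 offset. Each deposited peak carries a fold enrichment (a ratio over the background of its own library) and a −log10 p-value and −log10 q-value. The smallest deposited −log10 q-value was 1.302, so chromatin without a called peak lay under this threshold and need not be closed. The lists held 41385 to 61861 peaks, and fewer peaks or weaker enrichment in a library cannot be told apart from closed chromatin there.

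Peaks overlapping by at least 1 bp were merged over all libraries, and regions in at least 2 libraries were kept. Detection was tested per region with an exact two-sided permutation test of the difference of differences over all 853776 orders of the phenotype labels within both states, with Benjamini-Hochberg adjustment over those regions that could reach an unadjusted p under 0.05. For the rank test, the highest fold in each region was ranked within its library over the regions found in all 24 libraries, scaled from 0 to 100 and fitted with limma 3.58.1 (R 4.3.3) with 4 group means. Library measures were tested like detection and adjusted over 5 measures. The background level was solved from 2000 peaks per library (tolerance 0.003 of the −log10 p-value, pseudocount 1) and was added after the data were seen. Scripts ran under Python 3.11.15 with numpy 2.4.6, scipy 1.17.1 and pandas 2.3.3, and the tests were tested on simulated data first.

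A region was assigned to the nearest protein-coding gene body within 50 kb of its midpoint, from RefSeq GRCm38.p6, and that gene need not be its target. Of 343 listed genes, 340 matched. The table gives no strand, so a gene end is either end, within 1 kb, and exons, introns and UTRs were not resolved.

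Named regions were the 10 per direction with the smallest p in each test, the smallest p per pathway list and test, and the smallest rank p at 21 landmark genes. There were 10 pathway lists (cell cycle, glycolysis, lipid handling, negative feedback, antigen presentation, trained immunity and diabetes, alternative and classical activation, interferon response, inflammatory cytokines) and 8 marker lists. The subject, members, lists and tests were chosen with earlier results of these data known. Alternatives varied list length, q-value threshold, region definition, test, rank scale, covariates, the replicate block and each library in turn. A few of the named regions are not reported here.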

Additional observations from a re-analysis of the deposited data

Results flagged for a closer look

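A group of 6 libraries was examined for a single library far from its neighbours in 204 cases, and 12 stood out by Dixon's criterion (the gap to its nearest neighbour over the range of the group), where chance flags about 1 in 20 groups. The background level of the lowest unstimulated control library was 0.664 tags, the lowest of all 24. The other 11 were percentile ranks at named regions. In the larger direction, control stimulated replicate 2 had a high rank of 45.5 at Tent4b, diabetic unstimulated replicate 1 a high rank of 91.8 and diabetic stimulated replicate 4 a low rank of 31.2 at Kitl, and control unstimulated replicate 5 a low rank of 0.31 at Cp. In the smaller direction, control stimulated replicate 5 had a high rank of 72.3 at Prr5l, and control stimulated replicate 4 a low rank of 80.0 at 0610009B22Rik.

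At listed genes, diabetic unstimulated replicate 6 was low at Runx2 (36.8) and Irf4 (35.7). Control unstimulated replicate 2 was high at Cd36 (83.8), control stimulated replicate 4 was high at Tlr2 (57.3), and control stimulated replicate 6 was low at Tlr4 (5.87).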

How the results depend on the processing

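No region passed either test under any setting tried, namely equal lists, a −log10 q-value of at least 5, 500 bp windows, Zelen's test, adjustment over all regions, regions in at least 6 libraries, normal scores, ranks of the −log10 q-value, regions in at least 18 libraries, gene ends ranked separately, a trended robust prior, the median fold as a covariate, and each library left out. The smallest adjusted p with 1 library left out was 0.499 in detection (permutation) and 0.0987 in rank (limma, without diabetic stimulated replicate 2), and ran up to 1 and 0.666. Whether replicate numbers pair the libraries is not known. Same-numbered deviations correlated between -0.058 and 0.065, with 0 of 6 above 0.1 in either phenotype. At most 3 of 6 correlated best with their own number, and such correlations cannot decide whether same-numbered libraries share a mouse. With the replicate block, 0 regions passed (smallest adjusted p = 0.954 in detection and 0.573 in rank). Counts at an unadjusted p under 0.05 moved more. They were 1014 to 1722 larger and 152 to 298 smaller in detection with 1 library left out. All of these were above the counts with no library left out, and the highest were without diabetic stimulated replicate 5 and diabetic unstimulated replicate 6. There were 72 smaller in detection at the stricter q-value, and 1200 larger and 1262 smaller in rank with regions in at least 18 libraries. With 1 library left out, the interaction ran from 5727 to 8442 for peak number, from 1.59 to 3.1 Mb for covered length, from -5.2 to 3.0 bp for width, from -3.23 to -2.16 points for gene-end share and from 0.91 to 1.34 for fold. Median width also reversed with equal lists (21.5 bp), and was positive without control stimulated replicate 6. Single regions that reversed were chr17:83277444-83277964 (-1 library with equal lists), Ciita (1 library at the stricter q-value), Il6 in rank (4.4 points with gene ends ranked separately, 4.84 with the median fold as a covariate, -8.87 to 2.08 with 1 library left out) and Il1b in rank (-13.5 to 0.163 with 1 library left out). The cause was not tested. The list lengths and the calling threshold limit detection, and 6 libraries per group limit the rank estimates.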
